A study of Mus musculus with 2 samples.

Results

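Incomplete splice match (ISM) models are transcript models whose introns all match consecutive introns of another transcript but whose intron chain stops short of it at one or both ends. The models described here were chosen by their class and reads: they were called ISM by the authors, have 2 or more exons and have 5 or more reads in either of 2 libraries. A model was counted as 1 intron chain (chromosome, strand and splice sites), so that the same chain in both libraries is 1 model. The rule took 4466 chains of the 50029 multi-exon ISM chains, and of the 148502 multi-exon chains of all classes. Of these 4466, 3852 had 5 or more reads in replicate 2 and 1746 in replicate 1.

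The study sequenced total RNA of adrenal gland as long reads in 2 libraries, replicates 1 and 2 of a single group: male mice of the strain B6CASTF1/J aged 25 days, with no treatment named in the labels. The labels give 1 animal in the descriptions of both libraries but different animals in those of the tissue, so whether 2 mice were used is unclear. An RNA input of 1 µg is given for replicate 2 alone. With 1 group there is no comparison of conditions, and differences between the libraries are differences between 2 samples.

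A messenger RNA is made from its 5′ end to its 3′ end, and its introns are removed as it is made. The poly(A) tail is added after cleavage downstream of a signal, most often AATAAA, and long-read protocols usually prime the first cDNA strand on that tail. A suffix model keeps the last introns of a known transcript and lacks the first ones, as a start inside the gene or an incomplete cDNA would give. A prefix model keeps the first introns and lacks the last ones, as an early poly(A) site or priming on an internal run of A would give. Which of these made any model was not tested.

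The sequences below are examples of prefix ends with and without a poly(A) signal. They were read on GRCm38 from transcript sequences of GENCODE M21 and are written 5′ to 3′ on the strand of the gene. The first group is the 3 prefix models with the highest mean level that carry a poly(A) signal, with the signal in capitals. They are the 6-exon models of Mup3 (chr4:62083479-62083508, minus strand), Mup22 (chr4:60817589-60817618, minus strand) and Mup19 (chr4:61778324-61778353, minus strand), and each window ends at the 3′ end of the model.
Mup3: cctgttcAATAAAtgattacacttgcactt
Mup22: cctgttcAATAAAtgattacccttgcactt
Mup19: gttcAATAAAtgattacccttgcacttaaa

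The second sequence is the end of the highest prefix model without a signal, the 2-exon model of Abcb1b (chr5:8798777-8798806, plus strand). It ends at an exon edge, and its last 30 bases are shown.
Abcb1b: caagaacttctcgaagatgggcaaaaagag

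The last group, chosen after the values were seen, is 3 high prefix models that end inside an exon of the matched known transcript, before an A-rich stretch. The last 10 bases of the model and the next 20 bases of the gene are shown. Capitals mark the longest run of A after the end, or the first of them where runs are equally long. They are Eif5 with 7 exons (chr12:111541718-111541747, plus strand), Srrm2 with 5 exons (chr17:23809997-23810026, plus strand) and Son with 3 exons (chr16:91654690-91654719, plus strand). The ends of the Eif5 and Srrm2 models are also the annotated end of another transcript, and that of Son is not.
Eif5: ttggtacaggaaagaaagAAAAggaaaaga
Srrm2: tcaccaactccaaagcAAAAgaagaagaaa
Son: aaagaagcatAAAAAgcacaaaaacaaaaa

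The libraries held 793999 and 1290342 reads, of which 752432 and 1210671 fell in annotated genes. Levels are given as CPM, reads scaled to the sum of these gene reads, so that 1 read is worth 1.33 CPM in the first library and 0.826 CPM in the other. A count of 0 allows up to 3.99 and 2.48 CPM. The summed level of the steroid synthesis genes was 71125 and 29762 CPM, and that of chromaffin genes 14252 and 9667 CPM, so markers of cortex and medulla were read in both. The libraries stood apart in other tissues: the 20 genes of the liver list came to 227 against 94344 CPM, and the 23 of the skeletal muscle list to 5139 against 126 CPM. ISM models of the liver list made up 127 of the 4466 models, with 4 reads in replicate 1 and 10159 in replicate 2. Those of the muscle list were 14, with 122 and 12 reads. The known multi-exon models read in replicate 2 were also shorter. Their mean length, weighted by reads, was 2664 bases in replicate 1 and 2284 bases in replicate 2. These are lengths of models and not of reads. The part of depth, tissue and read length in the differences below was not tested. Some values are also given without the genes of the liver and muscle lists. Other liver genes, such as Serpinc1 and Mup22, stay in, so those values do not remove the part of tissue.

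Multi-exon ISM models took 63445 of 695192 multi-exon gene reads in replicate 1 and 122044 of 1088569 in replicate 2. This is 9.13% (95% exact binomial interval 9.06 to 9.19) and 11.2% (11.2 to 11.3). Known models took 80.2% and 80.4%. Intervals cover counting error only, since reads may be copies of 1 molecule. Most ISM models were seen once: 69.7% of the 24484 in replicate 1 and 63.3% of the 36155 in replicate 2 had a single read. Just inside the threshold lay 970 chains with 5 reads in the library where they had most, and just outside it 1636 chains with 4.

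The ISM share rose with the number of exons of the gene's leading known transcript. Among reads of known and ISM multi-exon models, it was 4.37% in replicate 1 and 4.96% in replicate 2 for genes with 2 to 3 exons. For genes with 26 or more exons it was 27.7% and 44.6%. In replicate 1 genes of 4 to 6 exons (9.51%) lay above those of 7 to 10 exons (7.85%), but without Hsd3b1 they stood at 5.81%. In replicate 2 the same genes went from 7.31% to 5.82% without it. The step was not confined to suffix models: prefix reads went from 0.438% to 1.44% in replicate 1 and from 0.967% to 7.87% in replicate 2 between the lowest and the highest exon numbers.

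**Figure D1:**
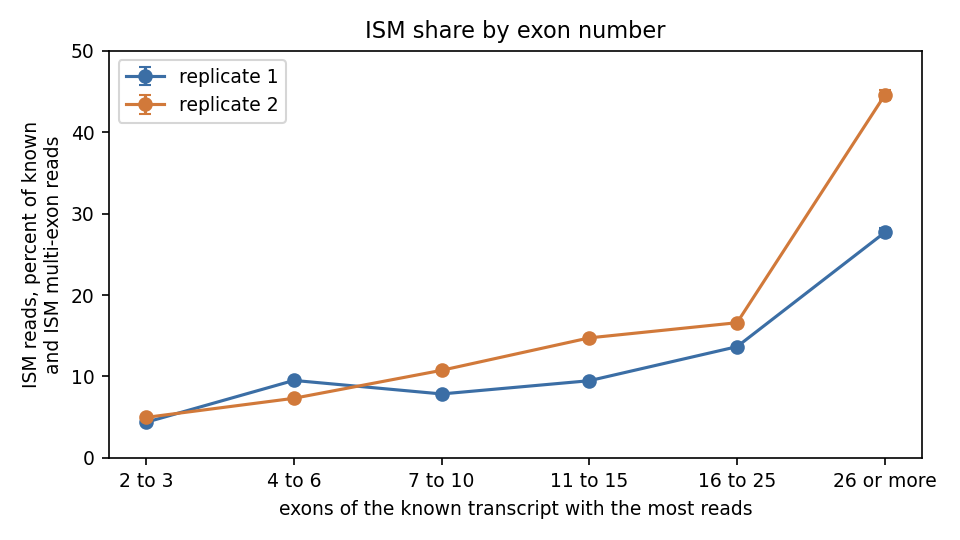
ISM reads as a percent of known and ISM multi-exon reads (y axis) by the exon number of the known transcript with the most reads in the gene (x axis), for replicate 1 (blue) and replicate 2 (orange), with 95% exact binomial intervals that are often smaller than the points. The share is highest for genes with 26 or more exons, at 27.7% and 44.6%.

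Suffix models were the large majority. Matching each chain to the known transcripts gave 3669 suffix models, 82.2% of the 4466 (95% exact binomial interval 81.0 to 83.3), and 538 prefix models, 12.05% (11.1 to 13.0). Another 20 chains were a prefix of one transcript and a suffix of another, 22 were internal, and 217 were held by no known transcript. Of those 217, 213 were held by a model with a new combination of sites or a new splice site in these libraries. Prefix models took a larger share of the reads in replicate 2, with 1783 of 35232 reads (5.06%) in replicate 1 and 8574 of 76680 (11.2%) in replicate 2. The authors' deposited table gives the same class for 94.9% of the chains read in replicate 1 and 94.4% of those in replicate 2.

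The models fell in 2285 genes, of which 1442 had a single one and 30 had 10 or more. Fasn, the fatty acid synthase, had the most, with 33 suffix models holding 1009 and 565 reads. Abcb1b, a drug efflux pump, had 32, of which 20 were suffix models. C3, a complement protein, had 31 with 55 and 1013 reads, and Acly, which makes cytosolic acetyl-CoA, had 26. Models of 1 gene share their transcript and are not independent. A suffix and a prefix model were found together in 124 genes.

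The median suffix model had 7 exons and 1958 bases and lacked 4 introns at its 5′ end (interquartile range 1 to 8, up to 64). Its matched known transcript, the one with the most reads among those that hold the chain, had a median of 12 exons and 2873 bases. The median prefix model had 8 exons and 1859.5 bases and lacked 4 introns at its 3′ end (1 to 9, up to 57), against 13 exons and 3320 bases. Length was 69.2% of the known transcript in suffix and 51.9% in prefix models. The pooled prefix values were close to those of replicate 2. The 131 prefix models with 5 or more reads in replicate 1 had a median of 1 missing intron, 2632 bases and 104% of the known length. The 497 of replicate 2 had 4 missing introns, 1806 bases and 49.6%. Suffix models lacked a median of 3 and 4 introns, with 73.2% and 69.2% of the known length. A model could also be longer than its known transcript, through a retained intron or a later 3′ end: this was so for 446 suffix (12.2%) and 133 prefix models (24.7%).

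The distribution had its peak at 1 missing intron, with 939 suffix models (25.6%) and 151 prefix models (28.1%). Suffix models missing 1 intron held 44.4% of suffix reads in replicate 1 and 36.8% in replicate 2. Without Hsd3b1, which alone leads the class, they held 33.5% and 32.3%. At the other end 215 suffix and 32 prefix models lacked 21 or more introns.

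**Figure D2:**
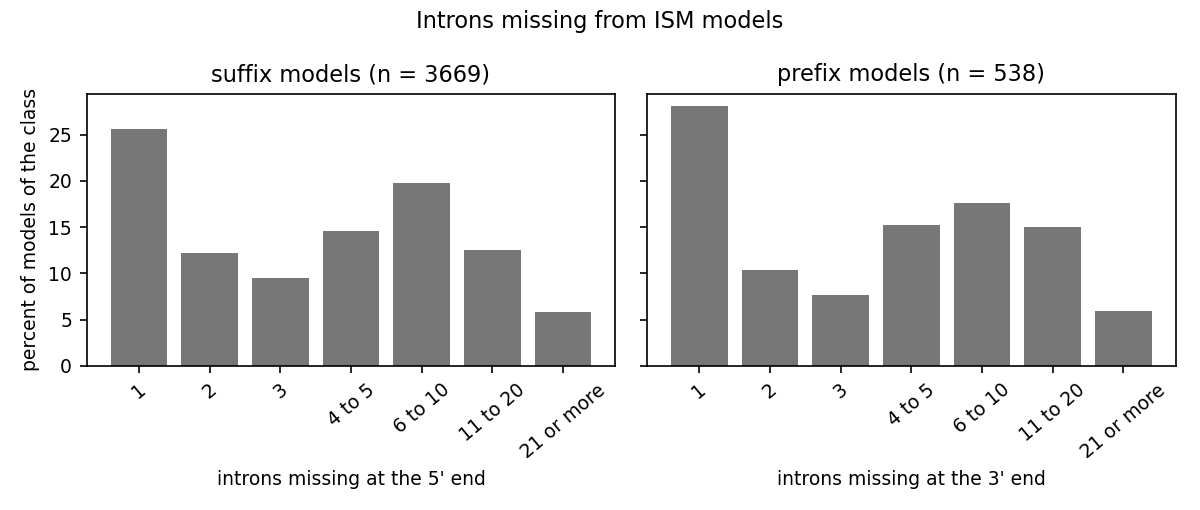
Percent of suffix (left, n = 3669) and prefix models (right, n = 538) by the number of introns missing at the 5′ or the 3′ end of the matched known transcript; bins widen to the right. In both classes 1 missing intron is the most frequent value, at 25.6% and 28.1%.

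Collagens held the models with the most missing introns among those with 20 or more reads in all. A 17-exon suffix model of Col5a3 lacked 50 introns of a 67-exon transcript, with 19 reads in replicate 1 and 3 in replicate 2, and a 20-exon model lacked 47, with 12 and 14 reads. Models of Col4a2, of 5 and 6 exons, lacked 43 and 42 introns and had 11 and 12 reads and 23 and 8 reads. An 11-exon model of Col4a1 lacked 41 introns, with 16 and 4 reads. These genes encode fibrillar and basement membrane collagens from long transcripts of many short exons.

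Model ends are not read ends: 86.2% of suffix models start on an annotated exon edge, and 76.8% of prefix models end on one. Of the suffix models, 2228 started at the edge of an exon inside the annotated transcript, 935 at an annotated transcript start and 506 elsewhere. Against the matched transcript, 2900 started within or at the exon they keep, 345 in the intron before it and 424 beyond that intron, so that it is retained. The start lay within 50 bases of the RefSeq start of the gene in 143 of 2889 suffix models whose gene is in the table of starts used. This was so for 111 of 337 models (32.9%) that retain the intron before the exon they keep and for 14 of 2280 (0.614%) that start within or at the exon. The same chain had the same 5′ end in both libraries in 1920 of 2599 suffix models (73.9%), and the same 3′ end in 171 of 245 prefix models (69.8%). Among ends off the annotated edges in both libraries, 129 of 217 suffix and 21 of 48 prefix ends were the same.

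The protein-coding part lost followed largely from the definition of the class. A suffix model keeps the last introns of its known transcript and a prefix model the first ones. Of 3600 suffix models matched to a coding transcript, 3580 (99.4%) spanned the stop codon and 545 (15.1%) the start codon. Among those missing 1 intron, 489 of 915 (53.4%) spanned the start codon. Among those missing 2 or more, 56 of 2685 (2.09%) did. Of 512 prefix models 504 (98.4%) spanned the start codon and 105 (20.5%) the stop codon.

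The 3′ ends of prefix models differed between the libraries. A poly(A) signal (AATAAA or ATTAAA within 40 bases before the end, on the strand of the gene) stood at 82 of 106 prefix ends (77.4%, 68.2 to 84.9) of the models with 5 or more reads in replicate 1. In replicate 2 it stood at 107 of 438 (24.4%, 20.5 to 28.7). The intervals take each model as independent, which models of 1 gene are not, so they do not test a difference between the libraries. The minimum of 5 reads is also worth 6.65 CPM in replicate 1 and 4.13 CPM in replicate 2. Suffix models had the signal at 82.4% and 80.4% of ends and known multi-exon models at 75.5% and 74.4%. Known models carry annotated ends, and 3329 of 3669 suffix models (90.7%) end at an annotated transcript end. These shares thus largely describe the annotation and could hardly differ between the libraries. At internal exon edges of known transcripts with 5 or more reads, where no tail is added, 1363 of 80671 windows (1.69%) held it. Without the genes of the liver and muscle lists the values for prefix ends were 77.4% and 24.3%, with 484 of the 497 prefix models of replicate 2 kept.

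The sequence after the end moved the other way. The next 20 bases were A-rich (6 A in a row, or 12 A in all) after 7 of 43 prefix ends in replicate 1 (16.3%, 6.81 to 30.7) and 77 of 198 in replicate 2 (38.9%, 32.1 to 46.1). The same limit holds for these intervals. Suffix ends gave 6.88% and 9.79%, and known ends 7.18% and 6.56%, again mostly at annotated transcript ends. At the same place the A-rich shares of the libraries lay closer. Prefix ends within or at an exon gave 4 of 10 (40%, 12.2 to 73.8) in replicate 1 and 72 of 148 (48.6%, 40.4 to 57.0) in replicate 2. Those in the next intron gave 2 of 11 and 4 of 12, and those through it 1 of 22 and 1 of 38. The sequence after an end could be read only where it lies in an annotated exon, so the counts are of those ends. The windows printed for Eif5, Srrm2 and Son are of this kind.

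**Figure D3:**
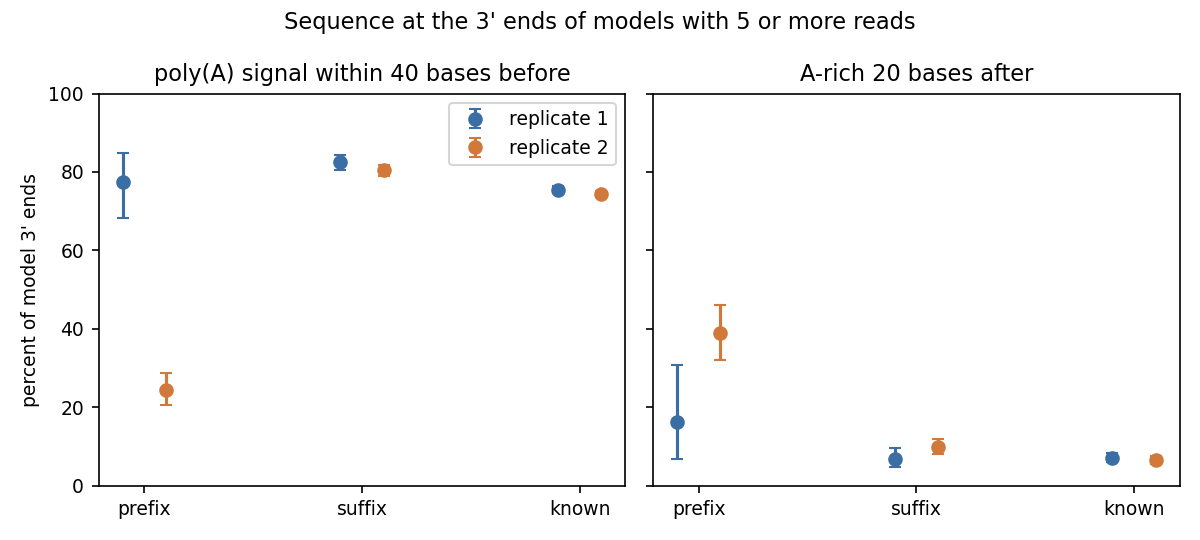
Percent of 3′ ends with a poly(A) signal in the 40 bases before (left) and with an A-rich stretch in the 20 bases after (right), for prefix, suffix and known models with 5 or more reads in replicate 1 (blue) or replicate 2 (orange), with 95% exact binomial intervals. Prefix ends with a signal stand at 77.4% in replicate 1 and 24.4% in replicate 2. The other classes, whose ends are mostly annotated transcript ends, lie together.

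The signal varied with the place of the end. Prefix models that ended within or at an exon of the known transcript had a signal at 17 of 303 ends (5.61%) and an A-rich stretch after 72 of 148 (48.6%). Those that ended in the next intron had a signal at 32 of 55 (58.2%), and those that ran through it at 84 of 111 (75.7%). At each place the signal was more frequent in replicate 1. Within or at an exon it stood at 3 of 18 ends in replicate 1 and 17 of 302 in replicate 2. In the next intron it stood at 25 of 32 and 26 of 45. Through that intron it stood at 54 of 56 (96.4%, 87.7 to 99.6) and 64 of 91 (70.3%, 59.8 to 79.5). An A-rich stretch followed 5 of 16 ends in the next intron (31.2%), few of which could be read, and 2 of 45 of those through it (4.44%). Among ends within or at an exon that are also annotated transcript ends, such a stretch followed 54 of 92 (58.7%). Exon ends made up 18 of 131 prefix models (13.7%, 8.35 to 20.8) in replicate 1 and 302 of 497 (60.8%, 56.3 to 65.1) in replicate 2. Suffix models showed no such split of their 5′ ends, with 76.2% and 78.9% within or at an exon. Prefix models of replicate 2 that were also read in replicate 1 had the signal at 84 of 189 ends (44.4%), and those not read there at 23 of 249 (9.24%).

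**Figure D4:**
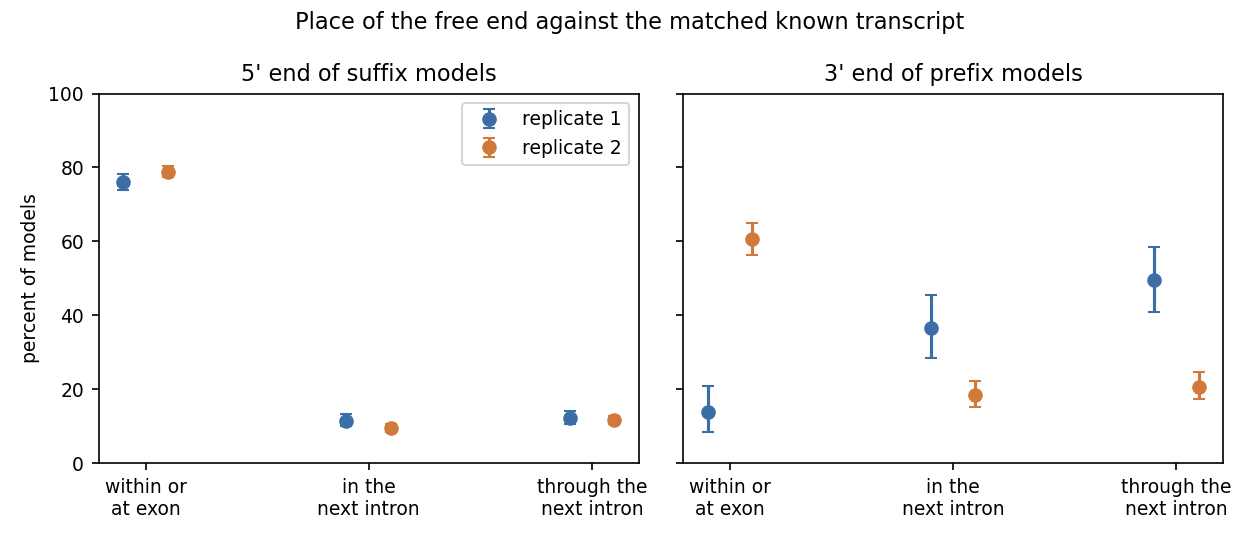
Percent of suffix models by the place of the 5′ end (left) and of prefix models by the place of the 3′ end (right) against the matched known transcript, for models with 5 or more reads in replicate 1 (blue) or replicate 2 (orange), with 95% exact binomial intervals. Ends within or at an exon are 13.7% of prefix models in replicate 1 and 60.8% in replicate 2.

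Not all named prefix models had a signal or an A-rich stretch. Mup3 and Mup22 had a signal, and the 6-exon model of Hsp90ab1 had neither. The Abcb1b model had no signal, and the sequence after its end could not be read. Mup3 and Mup22 encode major urinary proteins, pheromone carriers made by the liver, and their 6-exon models retain the last intron and end at an annotated transcript end. They had no read in replicate 1 and 570 and 470 reads in replicate 2, and reads of these near-identical genes may be split between copies. The 2-exon model of Abcb1b, which keeps 2 of 28 exons, had 25 and 487 reads, 0.433% (0.28 to 0.638) and 14.3% (13.1 to 15.5) of the gene. The 6-exon model of Hsp90ab1, a cytosolic chaperone, had 1 and 313 reads. The 11-exon model of Kif5b, a kinesin motor, had 9 and 190 reads, which is 5.14% and 64.2% of the gene. The 22-exon model of Psmd1, a subunit of the proteasome regulatory particle, had 37 and 137 reads, or 20.3% (14.7 to 26.9) and 66.5% (59.6 to 72.9) of the gene. Each of these 6 had more reads in replicate 2 than in replicate 1, also as a share of the gene where both libraries read it. The choice in part fixes this, since models entered by reads in either library and were named by mean level. Mup3, Mup22 and Hsp90ab1 reached the read minimum in replicate 2 alone.

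The other classes were small. The highest internal model was a 2-exon model of Hsp90ab1 with 4 and 683 reads, which ends at the same place as the 6-exon prefix model. Next came a 17-exon model of Sptb, the erythroid and muscle spectrin, with 77 and 34 reads, 76.2% and 73.9% of the gene, and an 11-exon model of Ggnbp2 with 3 and 20 reads. Among chains that were a prefix of one transcript and a suffix of another, Pop5, a subunit of RNase P, had 13 and 28 reads, Nisch 16 and 19, and Star 19 and 6. Among chains held by no known transcript, the 22-exon model of Acsl5, an acyl-CoA synthetase, had 42 and 290 reads, Dus1l 26 and 77, and Suds3 73 and 0.

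The leading suffix model was that of Hsd3b1 (ENSMUSG00000027871.16), which converts pregnenolone to progesterone in the cortex. It lies at chr3:98851147-98858341 on the minus strand, keeps 4 of 5 exons and lacks the first. It had 4721 reads in replicate 1 and 3753 in replicate 2, or 6274 and 3100 CPM. All known Hsd3b1 models together had 75 and 34 reads, so the suffix model was far above them in both libraries. It spans the start and the stop codon, and its 3′ end lies 1047 bases past that of the matched transcript. A 3-exon suffix model of the gene had 583 and 554 reads. The Hsd3b genes are close copies, and the split of reads between them was made by the authors' counting.

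The other leading suffix models were of liver and cortex. Alb, the serum albumin gene, had an 8-exon model with 1 and 2066 reads and a 12-exon model with 0 and 1719 reads. Serpinc1, which encodes antithrombin, had a 7-exon model with 0 and 1713 reads, 79.7% of the gene in replicate 2. These were all but absent from replicate 1. Hao2, a peroxisomal hydroxy acid oxidase, had a 5-exon model with 486 and 372 reads. Cyp11a1, which makes pregnenolone from cholesterol, had a 6-exon model of 531 and 246 reads that starts 2853 bases upstream of the exon it keeps, through an intron. The 9-exon model of Cyp21a1, the steroid 21-hydroxylase, had 469 and 284 reads and also retains an intron.

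Genes led by an ISM model were few. Of 5749 genes with 20 or more reads in each library, the model with the most reads was one of these ISM models in 124 (2.16%) in replicate 1, in 207 (3.601%) in replicate 2 and in 84 (1.46%) in both. ISM models of any exon number or reads led 144 and 294 genes, and known models 91.8% and 88.3% of the genes. In 70 of the 84 the same chain led both libraries, of which 59 were suffix and 8 prefix. Of those 59 suffix chains 28 lacked 1 intron (47.5%), and 21 of the 57 matched to a coding transcript (36.8%) spanned the start codon. Over all suffix models these shares were 25.6% and 15.1%. The difference was not tested, since the leading models were chosen by reads.

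In 6 of the 12 such genes with the most reads, the leading model held over 60% of the reads in both libraries. Ndufa13, a complex I subunit, had 133 of 138 reads in replicate 1 (96.4%, 91.7 to 98.8) and 285 of 298 in replicate 2 (95.6%, 92.7 to 97.7) in a 4-exon model that lacks 1 intron and spans the start codon. Psmc2, a proteasome ATPase, had 128 of 135 and 176 of 191 in a 12-exon model. Atp5f1, a subunit of ATP synthase, had 246 of 267 (92.1%) and 434 of 455 (95.4%) in a 7-exon model. Known models of these 3 genes had at most 2 reads in a library. Ctsa, a lysosomal carboxypeptidase, had 145 of 167 and 120 of 160 reads, and Tspan12, a tetraspanin, 142 of 185 and 146 of 225.

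The sixth was Hsd3b1, at 79.9% and 78.8%. Hao2 had 52.8% and 53.9%. Atp5j, another ATP synthase subunit, had 54.0% and 54.8%. Dhcr7, the last enzyme of cholesterol synthesis, had 406 of 585 reads (69.4%, 65.5 to 73.1) and 106 of 233 (45.5%, 39.0 to 52.1). Slc27a1, a fatty acid transporter, had 19.6% and 14.1%. Gtf2i, a transcription factor, had 17.99% (12.8 to 24.2) and 31.2% (25.3 to 37.6) in a 10-exon model that lacks 23 introns. Dhcr7 and Gtf2i moved in opposite directions beyond their intervals, and the intervals of Hsd3b1, Hao2 and Atp5j overlapped between the libraries.

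**Figure D5:**
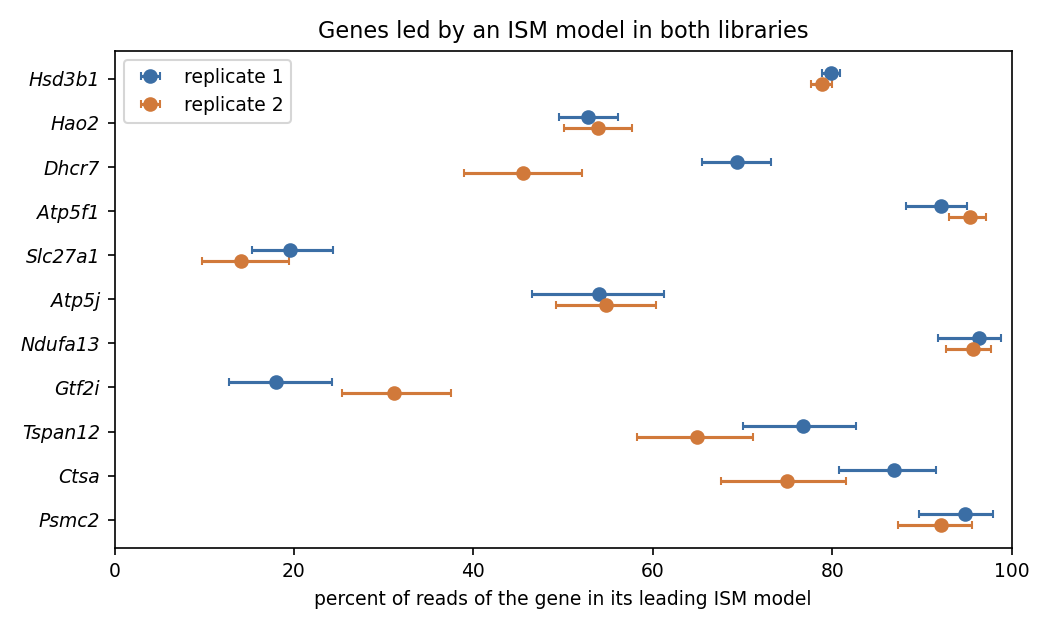
Percent of the reads of a gene held by its leading ISM model (x axis) in 11 of the 12 genes with the most reads led by one in both libraries, for replicate 1 (blue) and replicate 2 (orange), with 95% exact binomial intervals. Ndufa13, Psmc2 and Atp5f1 stand above 90% in both, and Dhcr7 is 69.4% in replicate 1 and 45.5% in replicate 2.

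The ISM share of each gene was compared between the libraries with a two-sided Fisher's exact test of multi-exon ISM reads against all other reads of the gene, with Benjamini-Hochberg adjustment over 5749 genes. At an adjusted p of 0.05, 436 genes (7.58%) differed, 393 (6.84%) with a higher share in replicate 2 and 43 (0.748%) with a lower one. Since the test takes each read as independent, it compares these 2 libraries alone. Genes with a model in the set had 338 higher and 36 lower among 1709, which the choice of models by reads in part fixes. The median share over all genes tested was 4.17% in replicate 1 and 6.12% in replicate 2.

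Of the 4 largest rises in replicate 2, 3 were in genes with prefix models and none other in the set. Mphosph8, which binds methylated histone H3, went from 2 of 53 reads to 20 of 26 (adjusted p = 1.84e-09, Fisher's exact test), and its only model in the set is a 3-exon prefix with 1 and 18 reads. Plec, the cytoskeletal linker plectin, went from 1 of 23 to 27 of 37 (adjusted p = 7.21e-06), with chains held by no known transcript. Esf1, a ribosome assembly factor, went from 10 of 39 to 28 of 30 (adjusted p = 6.16e-07), and Rock1, a kinase that acts on the actin cytoskeleton, from 4 of 21 to 78 of 91 (adjusted p = 6.16e-07). Esf1 and Rock1 have prefix models, with 3 and 15 reads for the 9-exon model of Esf1.

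The largest falls were in other kinds of model. Uchl1, a ubiquitin hydrolase of neurons and chromaffin cells, went from 27 of 34 reads to 0 of 38 (adjusted p = 1.88e-11, Fisher's exact test). Suds3, a subunit of a histone deacetylase complex, went from 74 of 127 to 9 of 271 (adjusted p = 1.91e-32). Their models in the set, with 26 and 0 and with 73 and 0 reads as ISM, are held by no known transcript. Serping1, the C1 inhibitor, went from 51 of 62 to 98 of 298 (adjusted p = 8.90e-11), and Plcg1, a phospholipase, from 26 of 39 to 10 of 51 (adjusted p = 0.000391).

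Genes of steroid synthesis had 82 models in 16 of 22 genes, 58 of them suffix and 9 prefix, and an ISM share of 16.1% and 19.8% of gene reads. Hsd3b1 carried this share, and without it the list stood at 6.90% and 8.93%. Over all genes the share was 8.43% and 10.1%. Among the 20 with enough reads, replicate 2 was higher in 5 and lower in 1, where over all genes tested 6.84% were higher and 0.748% lower. Nr5a1, the master regulator of steroidogenic cells, went from 24.8% to 50.3% (adjusted p = 9.50e-11, Fisher's exact test). Its 4-exon suffix model, which lacks the first 3 introns, had 76 of 404 reads and 149 of 338. Cyp21a1 went from 8.65% to 13.9%, Cyp11b1, which makes corticosterone, from 3.27% to 7.39%, Por, the electron donor of microsomal P450 enzymes, from 14.96% to 27.1%, and Akr1b7, an aldo-keto reductase of the cortex, from 1.55% to 3.74%. Akr1c18, which inactivates progesterone, went from 24.8% to 16.03% (adjusted p = 0.0429).

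In the other genes of the list, apart from Hsd3b1, the leading model held at most 6.88% of the reads of the gene. Star, which carries cholesterol into mitochondria, had a 4-exon suffix model with 227 and 217 reads of 6524 and 5082. The prefix models of Cyp11b2, the aldosterone synthase (21 and 12 reads), and of Mrap, the partner of the corticotropin receptor (19 and 4 reads), both run through the last intron. Fdxr, Fdx1, Tspo, Hsd11b1 and Cyb5a had leading models of 0 to 49 reads in a library. Cyp11b1 and Cyp11b2 are close copies, as are Cyp21a1 and its pseudogene, so that their reads can be split.

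Chromaffin genes had 29 models in 12 of 31 genes, with an ISM share of 6.83% and 7.91%. Among the 16 with enough reads, replicate 2 was higher in 3 and lower in 2, beside the same 6.84% and 0.748% over all genes. Chgb, a granin of the secretory granule, had a 2-exon suffix model that starts in an intron, with 363 of 3329 and 200 of 4015 reads, and its ISM share went from 11.99% to 6.90% (adjusted p = 1.45e-11, Fisher's exact test). Chga went from 4.998% to 10.7%. Dbh, which makes noradrenaline from dopamine, went from 28 of 150 to 63 of 98 reads, and Gata2, a transcription factor, from 4 of 49 to 24 of 46. Slc18a1, a vesicular monoamine transporter, had a 16-exon suffix model with 9 of 17 and 14 of 18 reads and no read of a known model. Th, tyrosine hydroxylase, had 6 and 17 reads of 1260 and 1143 in its leading model. Cpe, which trims prohormones, had 34 and 31 reads, and the neuropeptide gene Npy 23 of 118 and 19 of 183. Leading models of Cyb561, Scg2 and Scg5 had 3 to 15 reads in a library.

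Beside the 127 models of liver genes, lists of other cell types held 1 to 21. Skeletal muscle genes had 14, led by Pygm, a glycogen phosphorylase (12 and 9 reads), and Acta1, the muscle actin (15 and 0 reads). Adipocyte genes had 21, led by a 2-exon suffix model of Fabp4, a fatty acid carrier, with 473 of 745 reads and 104 of 432. The share of Fabp4 fell from 78.0% to 32.9% and that of Lpl, a lipase, rose from 2.33% to 21.3% in replicate 2. Capsule and stroma genes had 20 models, led by a 15-exon chain of Col6a1 with 10 and 7 reads and a 28-exon suffix model of Col1a2 with 8 and 1, endothelial genes 6, led by Plvap with 9 and 5 reads and Eng with 4 and 6, and the macrophage list 1, of C1qa with 2 and 9 reads. Among nuclear long noncoding RNAs, a 3-exon prefix model of Meg3 had 1 and 78 reads and a 2-exon suffix model of Neat1 12 and 26. In the cholesterol supply list, with 43 models, the ISM share was 12.1% in replicate 1 and 2.54% in replicate 2, where Apoe, an apolipoprotein expressed in hepatocytes too, held 20461 of 27228 reads of the list. Replicate 2 was higher in 2 of its 19 genes tested and lower in 1, Dhcr7, against 6.84% and 0.748% over all genes. Without Apoe the share of the list was 14.9% and 8.97%, and without Dhcr7 it was 4.71% and 1.997%.

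Recurrence was judged in the library not used to choose. Of the 1746 models with 5 or more reads in replicate 1, 1609 were read as ISM in replicate 2 (92.2%, 90.8 to 93.4). Of the 3852 of replicate 2, 2477 were read as ISM in replicate 1 (64.3%, 62.8 to 65.8), which is the shallower library. The share was 68.9% (67.3 to 70.6) in suffix and 43.5% (39.1 to 47.9) in prefix models of replicate 2, against 94.1% and 90.8% in replicate 1. It was 60.03% for models with 5 to 9 reads and 70.9% for those with 20 or more. Without the genes of the liver and muscle lists it was 66.4%. In all 2954 models were read as ISM in both libraries and 1132 had 5 or more reads in each.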

How the data were processed

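Read counts per transcript model and the annotation of each library were deposited by the authors, not normalised and called in each library separately. The headers name mm10 and GENCODE M21, and the attributes carry the name TALON. The aligner and tool versions: not given in the sources used here. Exon numbers, lengths and coordinates are used as deposited.

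The models and gene lists were chosen with earlier results of these data known. Intron chains were matched exactly to the known transcripts with pandas 2.3.3 and scipy 1.17.1. The reference transcript was the one with the most reads in both libraries, then the fewest missing introns; through this, 11 suffix and 6 prefix models also lack an intron at the other end. Ends of a model are those of the library with more reads. No genome was used: sequence came from the exons of the GENCODE M21 transcripts, and starts from a RefSeq table. Log2 ratios (prior 0.5 reads) used CPM, and edgeR 4.0.16 TMM and DESeq2 1.42.0 size factors as alternatives. The matching and the Fisher test were tested on simulated data. Named models are the 8 highest suffix, 6 highest prefix and 3 highest of each other class by mean CPM, the 5 with the most missing introns, the 12 genes led in both libraries with the most reads, the 4 largest differences in each direction, and the leading models of the lists (each gene of the steroid and chromaffin lists, 2 of each other list). The 3 further A-rich ends were added after seeing the data. One of these 12 genes and the end sequences of some named models are not reported here.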

Additional observations from a re-analysis of the deposited data

How the results depend on the processing

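No paired analysis was possible because there is 1 group of 2 samples. Of 85 alternative values, 46 lay within the spread between the libraries, within 1.5 times a count, or within a 95% interval, and 39 did not. Those that leave out a single gene were chosen after seeing the data, and where they moved a share the value stands beside it. With 10 or more reads in either library there were 1822 models, 3 missing introns in the median suffix model and 19.01% of suffix models with the start codon. With 5 or more reads in each library there were 1132 models, 88.8% suffix, 3 missing introns, a length share of 75.2% over all classes (67.8% in the whole set), 23.1% with the start codon, and prefix ends with a signal in 74.7% and an A-rich stretch in 15.6%. Using each library alone (without replicate 2 or without replicate 1) gave 1746 to 3852 models, 81.9% to 86.9% suffix, 3 to 4 missing introns, a length share of 67.2% to 74.4% and 15.3% to 20.4% with the start codon. It gave prefix ends with a signal in 24.3% to 76.6% and an A-rich stretch in 12.8% to 38.9%, 122 to 203 genes led, and an ISM share of 9.13% to 11.2%. Here ends are those of the library itself. Over both libraries the signal stood at 28.4% of prefix ends, so that this value rests on the models of replicate 2. With expressed known transcripts as reference 77.8% were suffix. With the match of fewest missing introns the median was 3. With 50 or more gene reads 28 genes were led, and with models summed against known models 139. Recurrence in both libraries was 66.1%, 25.3% with 5 or more reads in the other library and 69.3% with replicate 2 thinned. Without models of 1 read the mean ISM share was 8.45% instead of 10.2%. The median log2 ratio was 1.44 by TMM and by size factors with a minimum of 10 reads, and 1.43 by TMM and 1.48 by size factors without one. Other causes of these shifts were not tested. Leaving out the genes of the liver and muscle lists moved none of the results it was run for beyond these limits. Other liver genes, such as Serpinc1 and Mup22, stayed in, so this does not settle the part of tissue. A chain that was not read as ISM in a library may still be present below 3 reads or be called there in another class.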

Other observations

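Ratios between the libraries are described for the set as a whole, although its choice by reads in either library in part fixes them. The median log2 ratio of replicate 2 over replicate 1 was 1.08 over the 4466 models by CPM, 0.85 over suffix and 2.77 over prefix models. It was -0.40 over 11467 known multi-exon models chosen by the same read minimum. With a minimum of 10 reads, known models stood at -0.04 by TMM and by DESeq2 size factors, and the ISM models at 1.44 by both. These medians follow in part from the choice by raw reads in a deeper library and are given without a test. The prefix median of 2.77 is the ratio of a model with 0 reads in replicate 1 and 5 in replicate 2. It is thus set by the read minimum and the prior and does not measure a level. In the whole set 1375 models were read as ISM in replicate 2 alone and 137 in replicate 1 alone. Of these, 36 of the 1375 and 31 of the 137 (22.6%) were called in another class in the other library.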
